A study of Caenorhabditis elegans with 12 samples.

Results

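The Notch pathway and the REF-1 family of its target genes were followed in eggs of Caenorhabditis elegans through 9 genes: the ligand genes lag-2 and apx-1, the receptor genes glp-1 and lin-12, the transcription factor gene lag-1, and the REF-1 family genes ref-1, hlh-25, hlh-26 and hlh-27. They were taken by their WormBase symbols and not by a rule on their values, but earlier results of these data were known at the choice. All 9 were among the 25122 genes of the expression table. RNA was sequenced from eggs of 3 genotypes with 4 libraries each: a triple mutant (daf-16;daf-2;bcl-11) with the alleles daf-16(mu86), daf-2(e1370) and bcl-11(bon125), a double mutant (daf-2;bcl-11) without the daf-16 allele, and daf-2(e1370) alone. The daf-2(e1370) allele, which reduces the function of the insulin/IGF receptor, was thus common to all libraries, and no egg without it was part of the comparison. The allele bon125 is a viable hypomorph of bcl-11, the counterpart of the vertebrate BCL11 zinc finger transcription factors, and mu86 is a deletion in daf-16, the FOXO transcription factor gene downstream of that receptor. Animals were grown at 20°C on OP50-1 bacteria, eggs were released from adults by bleaching, and the eggs were held at 27°C for 2 h before extraction. Each genotype is represented by a single strain, and the number of animals or cultures behind a library was not given in the sources used here, so p-values measure the spread between these libraries.

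Notch signaling acts between touching cells. A DSL ligand such as LAG-2 or APX-1 on one cell binds the receptor GLP-1 or LIN-12 on its neighbour, the receptor is cut, and its intracellular part joins the DNA-binding protein LAG-1 in the nucleus to switch on target genes. In the early C. elegans embryo, GLP-1 is made from maternal mRNA and specifies blastomere fates, and the REF-1 family, divergent basic helix-loop-helix repressors, are direct targets of embryonic Notch signals.

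The deposited values are regularized-log (rlog) values, that is, log2 of normalized counts with low-count genes shrunk towards their average, which understates their fold changes. A difference of 1 is a 2-fold change. They are not per length, read numbers cannot be recovered from them, so depth is unknown, and levels of different genes are not ranked. A gene was called changed at an absolute fold change over 1.5 (0.58 on the log2 scale) and a Benjamini-Hochberg adjusted p-value below 0.05, from limma fitted to all 12 libraries and 25122 genes. Fold changes are given with their standard error (SE) and 95% confidence interval. Because whole eggs were sampled, fewer cells of a type and less RNA per cell cannot be told apart.

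Facts of the whole series bear on every value here. daf-16 lay between 9.58 and 9.90 in the triple mutant, between 9.46 and 9.61 in the libraries labelled as the double mutant daf-2;bcl-11, and between 11.98 and 12.32 in daf-2, so daf-16 was as low in libraries whose label gives no daf-16 mutation as in those that carry the deletion. The libraries of the double mutant are therefore called the libraries labelled double throughout, and directions against or within them rest on that label. bcl-11 itself lay between 8.05 and 9.70 in the triple mutant, between 9.01 and 9.42 in the libraries labelled double, and between 9.61 and 10.47 in daf-2. Markers of embryonic stage also move with the genotypes. The mean of 15 maternal mRNAs (pos-1, mex-5, oma-1 and others) ranged from 11.16 to 12.81 in the triple mutant, from 12.12 to 12.71 in the libraries labelled double, and from 10.49 to 11.86 in daf-2. Replicate 4 of the triple mutant and replicate 4 of daf-2 stood apart within their genotypes, with 12.81 against a mean of 11.27 for the other 3 libraries and 11.86 against 10.62. The mean of 12 markers of the later embryo was lower in every mutant library than in any daf-2 library. It was 12.53 to 13.23, 12.80 to 13.03 and 13.37 to 13.75 in the same order of genotypes. Against daf-2, 10 of these 12 had log2 fold changes below 0 in the triple mutant (2 above). In the libraries labelled double 11 were below 0 (1 above). Yolk genes of the adult intestine (5 genes, mean 4.64 to 5.87 over all libraries) and sperm genes (6 genes, mean 3.46 to 4.12) had low rlog values in every library, and none of either list was called in any comparison. Values are therefore also given with both replicate 4 libraries left out, an alternative chosen after the data were seen.

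By its labels, the comparison of the libraries labelled double with daf-2 asks what the bcl-11 mutation changes in daf-2 eggs. daf-16 was also 6.05-fold lower there (limma adjusted p = 1.23e-08), so bcl-11 and daf-16 cannot be told apart in it. In this comparison, 6 of the 9 genes were called higher and none lower. lag-2, glp-1, ref-1, hlh-25, hlh-26 and hlh-27 were higher by 1.71-fold to 3.32-fold. Over all genes, 7.00% were called higher and 15.0% lower in the same comparison. The comparison of the triple mutant with daf-2 called 3 of the 9 genes higher, lag-2, apx-1 and ref-1, beside 6.38% of all genes called higher and 16.2% called lower. Both comparisons share the daf-2 libraries. Between the triple mutant and the libraries labelled double, none of the 9 genes was called by limma and none had an unadjusted p below 0.05, beside 0.0119% of all genes called and 6.03% with an unadjusted p below 0.05. The median log2 fold change of the 9 genes was 0.91 in the libraries labelled double against daf-2, 0.53 in the triple mutant against daf-2, and -0.13 between the triple mutant and the libraries labelled double, where the medians over all genes were -0.02, -0.01 and 0.00.

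**Figure D1:**
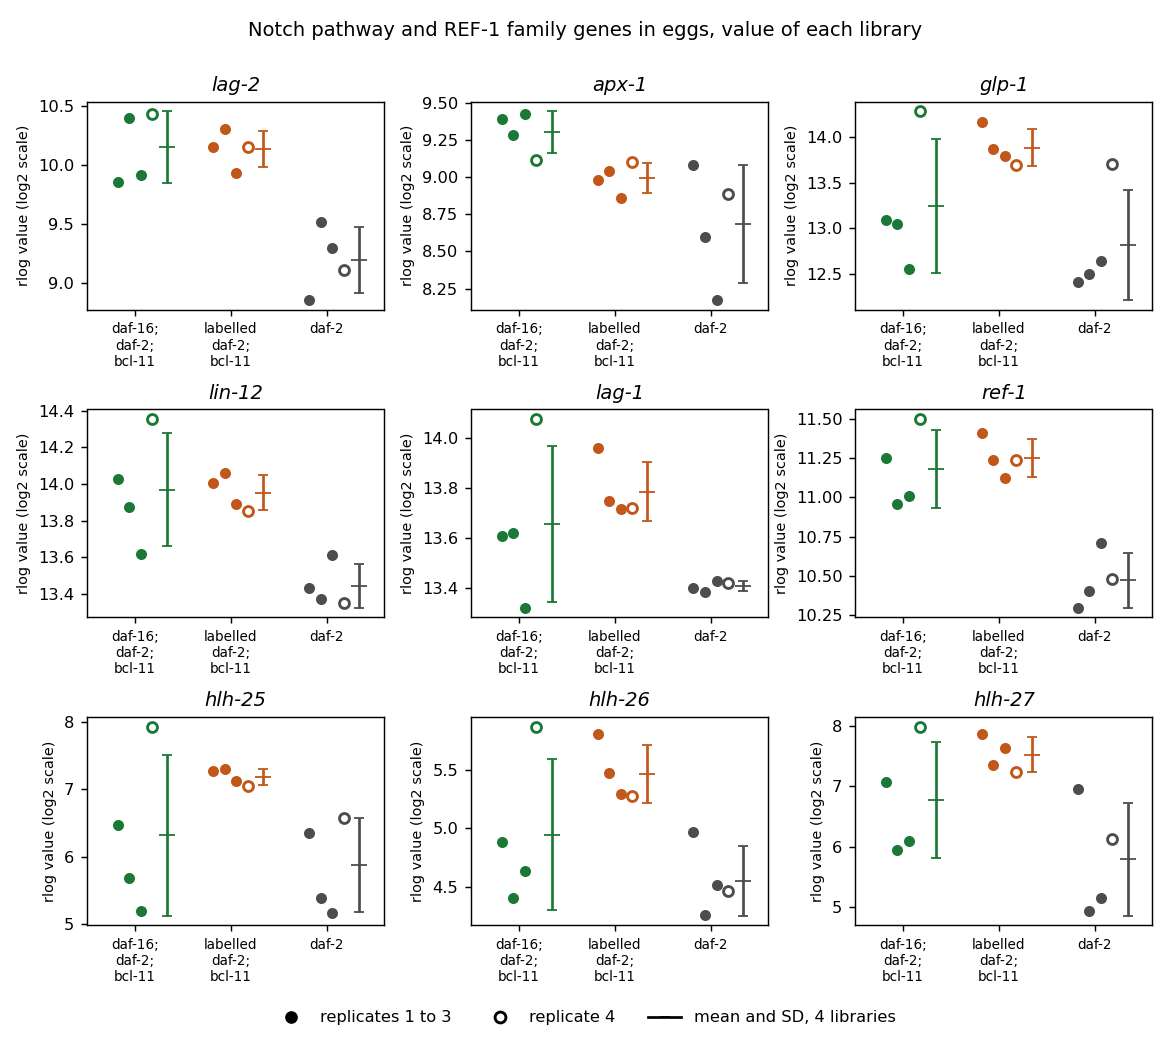
rlog value (log2 scale, a different range in each panel) of the 9 genes in every library of the triple mutant, labelled double and daf-2, with open points for replicate 4 and bars for the mean and SD of 4 libraries. lag-2 and ref-1 lie higher in all 8 mutant libraries than in any daf-2 library, while for glp-1, hlh-25, hlh-26 and hlh-27 replicates 1 to 3 of the triple mutant lie below the libraries labelled double and replicate 4 lies above them.

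lag-2 encodes a DSL ligand that is used in the embryo and later in the gonad. It lies on chromosome V (WBcel235, 3188343 to 3190115, plus strand), 20.1 kb from the other ligand gene. Its rlog values were 9.86, 10.40, 9.92 and 10.43 in the triple mutant, 10.15, 10.31, 9.94 and 10.16 in the libraries labelled double, and 8.86, 9.52, 9.30 and 9.11 in daf-2. Every mutant library was above every daf-2 library. lag-2 was 1.92-fold higher in the libraries labelled double than in daf-2 (log2 fold change 0.94, SE 0.18, interval 0.55 to 1.33, limma adjusted p = 0.00156). The increase in the triple mutant was 1.94-fold (0.95, SE 0.18, interval 0.56 to 1.34, limma adjusted p = 0.00107). The direct comparison of the triple mutant with the libraries labelled double gave a difference of 0.01 with an interval from -0.38 to 0.40. Without both replicate 4 libraries, the same 3 differences were 0.91, 0.83 and -0.08, and the first 2 were still called.

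apx-1 encodes the DSL ligand that is supplied maternally and signals from the P2 blastomere to its neighbour ABp. It lies on chromosome V (3210196 to 3223221, plus strand). Its rlog values were 9.39, 9.28, 9.42 and 9.12 in the triple mutant, 8.98, 9.04, 8.86 and 9.10 in the libraries labelled double, and 9.08, 8.60, 8.17 and 8.88 in daf-2. For apx-1, all 4 triple mutant libraries were above all 8 of the others, although the lowest of them exceeded the highest of the others by less than the spread within any genotype. It was 1.54-fold higher in the triple mutant than in daf-2 (0.62, SE 0.18, interval 0.23 to 1.01, limma adjusted p = 0.0182). That call was lost without daf-2 replicate 3 (0.45, adjusted p = 0.0518), without triple mutant replicate 3 (0.58, adjusted p = 0.0435, under the fold threshold), and when only the compared genotypes entered the model (adjusted p = 0.0605). In the libraries labelled double the difference from daf-2 was 0.31 (interval -0.08 to 0.70, limma adjusted p = 0.232), and groups overlapped. The triple mutant minus the libraries labelled double was 0.31 (interval -0.08 to 0.70, limma adjusted p = 0.788).

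glp-1 encodes the Notch receptor of the germ line and the early embryo. It lies on chromosome III (9092241 to 9099698, plus strand), and 18 of its exon bases overlap exons of ZK507.1 on the other strand, where Smart-seq2 reads, which keep no strand, cannot be told apart. ZK507.1 had mean rlog values from 5.18 to 5.83 over the 3 genotypes and was not called in any comparison. The rlog values of glp-1 were 13.09, 13.05, 12.56 and 14.29 in the triple mutant, 14.17, 13.87, 13.80 and 13.70 in the libraries labelled double, and 12.41, 12.49, 12.64 and 13.71 in daf-2. Replicate 4 was the highest library of both the triple mutant and daf-2, the same libraries that stood apart in maternal mRNAs, and daf-2 replicate 4 overlapped the libraries labelled double. glp-1 was 2.10-fold higher in the libraries labelled double than in daf-2 (1.07, SE 0.32, interval 0.38 to 1.77, limma adjusted p = 0.0222). The call was lost when daf-2 replicate 1, 2 or 3 or replicate 1 or 2 of the libraries labelled double was left out (0.94 to 1.07, adjusted p = 0.0527 to 0.071), and under quantile normalization (0.87, adjusted p = 0.0651). Without both replicate 4 libraries it was 1.37 (adjusted p = 0.000138).

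glp-1 of the triple mutant differed from daf-2 by 0.43 (interval -0.26 to 1.13, limma adjusted p = 0.348) and from the libraries labelled double by -0.64 (interval -1.33 to 0.06, limma adjusted p = 0.787). Neither difference was called. Without both replicate 4 libraries, glp-1 was called lower in the triple mutant than in the libraries labelled double, by -0.99 (SE 0.15, interval -1.31 to -0.66, adjusted p = 0.00829), and 2.00% of all genes were then called lower. With triple mutant replicate 4 alone left out, 1.27% of all genes and none of the 9 genes were called lower.

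lin-12 encodes the second Notch receptor, which lies 20.8 kb from glp-1 on the other strand of chromosome III (9060221 to 9071472). Its rlog values were 14.03, 13.88, 13.62 and 14.36 in the triple mutant, 14.01, 14.06, 13.89 and 13.86 in the libraries labelled double, and 13.44, 13.37, 13.61 and 13.35 in daf-2. No mutant library fell into the daf-2 range, although triple mutant replicate 3 and daf-2 replicate 3 nearly met. The differences from daf-2 passed the adjusted p but not the fold threshold, at 0.51 (SE 0.14, interval 0.22 to 0.80, limma adjusted p = 0.0115) in the libraries labelled double and 0.53 (SE 0.14, interval 0.23 to 0.82, limma adjusted p = 0.00846) in the triple mutant. Without triple mutant replicate 3, the second difference was 0.64 and was called (adjusted p = 0.00187).

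The difference glp-1 minus lin-12 within a library does not depend on the scaling of the library, and gene length cancels when it is compared between genotypes. It was -0.94, -0.83, -1.06 and -0.07 in the triple mutant, 0.16, -0.18, -0.09 and -0.16 in the libraries labelled double, and -1.02, -0.88, -0.97 and 0.35 in daf-2. Replicates 1 to 3 of the triple mutant and of daf-2 thus fell into the same range, near -1, and the 4 libraries labelled double lay near 0 together with both replicate 4 libraries. The same difference for the ligands, apx-1 minus lag-2, was -0.47, -1.12, -0.49 and -1.31 in the triple mutant, -1.18, -1.27, -1.08 and -1.05 in the libraries labelled double, and 0.22, -0.92, -1.13 and -0.23 in daf-2. None of 6 two-sided exact permutation tests of these differences between genotypes passed, with p between 0.0857 and 0.771 (Benjamini-Hochberg adjusted 0.286 to 0.771). The smallest p that 70 arrangements can give is 0.0286. A single test at that value could not pass after adjustment over the 6 tests.

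**Figure D2:**
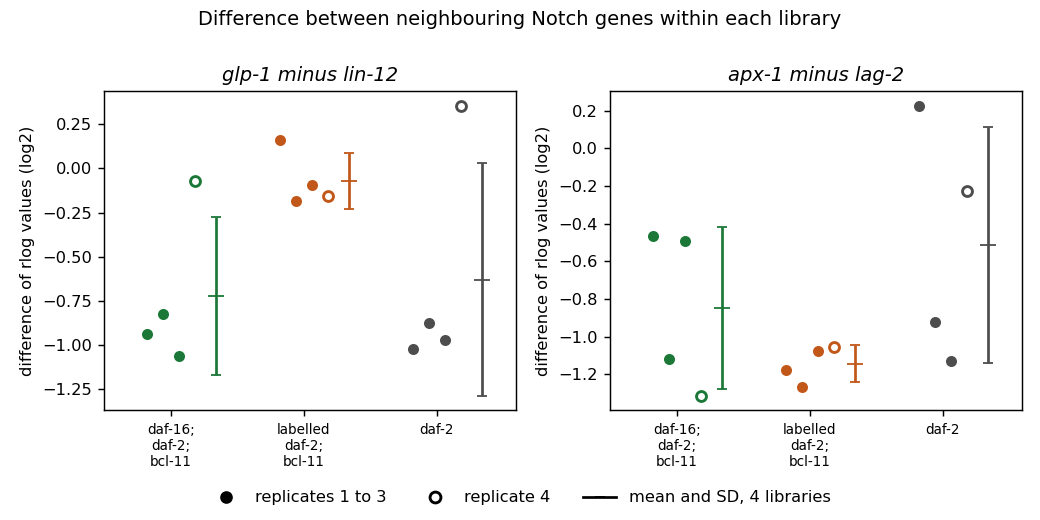
Difference of rlog values (log2 scale) between glp-1 and lin-12 and between apx-1 and lag-2 in each library, with open points for replicate 4 and bars for the mean and SD of 4 libraries. For glp-1 minus lin-12, replicates 1 to 3 of the triple mutant and daf-2 lie between -1.06 and -0.83, and both replicate 4 libraries lie above -0.10.

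lag-1 encodes the CSL protein that binds target genes and recruits the cut receptor. It lies on chromosome IV (6095407 to 6110655, plus strand), with 4 annotated genes on the other strand that share 293 exon bases with it. The 2 of these found in the expression table, K08B4.41 and M03D4.3, had mean rlog values from 1.87 to 2.55 over the 3 genotypes. The rlog values of lag-1 were 13.60, 13.62, 13.32 and 14.07 in the triple mutant, 13.96, 13.74, 13.72 and 13.72 in the libraries labelled double, and 13.40, 13.38, 13.43 and 13.42 in daf-2. The 4 daf-2 libraries were within 0.05 of each other, and all libraries labelled double were above them. The difference was 0.38 (SE 0.14, interval 0.09 to 0.67, limma adjusted p = 0.048), under the fold threshold. For the triple mutant it was 0.25 (interval -0.04 to 0.54, limma adjusted p = 0.188), with replicate 3 below the daf-2 range.

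ref-1 is the founding gene of the REF-1 family and lies on chromosome II (10218471 to 10220022, plus strand). Its rlog values were 11.25, 10.96, 11.01 and 11.50 in the triple mutant, 11.41, 11.24, 11.12 and 11.23 in the libraries labelled double, and 10.30, 10.40, 10.71 and 10.48 in daf-2. As for lag-2, every mutant library was above every daf-2 library. ref-1 was 1.71-fold higher in the libraries labelled double than in daf-2 (0.78, SE 0.15, interval 0.46 to 1.09, limma adjusted p = 0.00132) and 1.63-fold higher in the triple mutant (0.70, SE 0.15, interval 0.39 to 1.02, limma adjusted p = 0.00196). The triple mutant differed from the libraries labelled double by -0.07 (interval -0.38 to 0.24). With both replicate 4 libraries left out, the 3 differences were 0.78, 0.60 and -0.18, with the first 2 still called.

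hlh-26, hlh-25 and hlh-27 form a cluster of 7.4 kb on chromosome II (5532839 to 5533742, minus strand; 5535239 to 5536405, plus strand; 5539075 to 5540213, minus strand), with 1.5 kb and 2.7 kb between neighbours. Other members of the family, hlh-29 and hlh-28, lie 2.4 kb apart in opposite orientation on chromosome X (17547492 to 17548639, minus strand, and 17551055 to 17552202, plus strand), with gene models of the same length, 1148 bp. hlh-25 and hlh-27, and hlh-28 and hlh-29, are close copies of one another, and Kallisto divides reads that fit several transcripts between them, so the values of single copies are uncertain. hlh-27 also shares 20 exon bases with C17C3.11 on the other strand, whose mean rlog values were 2.32 to 2.52.

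hlh-25 had rlog values of 6.47, 5.69, 5.20 and 7.93 in the triple mutant, 7.27, 7.30, 7.13 and 7.05 in the libraries labelled double, and 6.36, 5.38, 5.17 and 6.58 in daf-2. The libraries labelled double were tightly grouped above every daf-2 library, and the triple mutant spread from the daf-2 range to above all others. hlh-25 was 2.49-fold higher in the libraries labelled double than in daf-2 (1.31, SE 0.47, interval 0.31 to 2.32, limma adjusted p = 0.0483). This call was lost with eBayes without a trend (adjusted p = 0.0826) and without any 1 library other than daf-2 replicate 4 and triple mutant replicates 3 and 4 (1.08 to 1.47, adjusted p = 0.0505 to 0.138). Without both replicate 4 libraries it was 1.55 (adjusted p = 0.00414). The triple mutant differed from daf-2 by 0.45 (interval -0.56 to 1.46, limma adjusted p = 0.51).

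hlh-26 had rlog values of 4.88, 4.40, 4.64 and 5.87 in the triple mutant, 5.81, 5.47, 5.29 and 5.28 in the libraries labelled double, and 4.97, 4.26, 4.51 and 4.47 in daf-2. The libraries labelled double did not overlap with daf-2. hlh-26 was 1.88-fold higher there (0.91, SE 0.28, interval 0.32 to 1.51, limma adjusted p = 0.0227). The call was lost without daf-2 replicate 2, 3 or 4 or replicate 1 or 2 of the libraries labelled double (0.80 to 0.91, adjusted p = 0.0504 to 0.0761), and it was made again without both replicate 4 libraries (0.88, adjusted p = 0.00936). In the triple mutant, where replicates 1 to 3 lay within the daf-2 range, the difference was 0.39 (interval -0.20 to 0.99, limma adjusted p = 0.315).

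hlh-27 had rlog values of 7.07, 5.94, 6.09 and 7.98 in the triple mutant, 7.87, 7.35, 7.63 and 7.23 in the libraries labelled double, and 6.95, 4.94, 5.15 and 6.13 in daf-2. Of the 9 genes it had the largest increase in the libraries labelled double, 3.32-fold (1.73, SE 0.46, interval 0.75 to 2.72, limma adjusted p = 0.0111), with no overlap. This call held in all 21 alternatives. In the triple mutant it was 1.98-fold higher than in daf-2 (0.98, SE 0.46, interval -0.00485 to 1.97, limma adjusted p = 0.125) and was not called, but it was higher in 4 of 4 replicate pairs. Titles give only a replicate number, and that libraries of the same number belong together was not established. With that number as a replicate block the same difference passed (limma adjusted p = 0.0488). It also passed without daf-2 replicate 1 (1.37, adjusted p = 0.0336).

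The X-linked family members hlh-29 and hlh-28 are not among the 9 genes and may share reads with each other. hlh-29 was at 5.12, 5.02, 4.33 and 6.73 in the triple mutant, 6.76, 6.07, 6.42 and 6.42 in the libraries labelled double, and 5.51, 4.34, 4.66 and 4.60 in daf-2. It was 3.11-fold higher in the libraries labelled double than in daf-2 (1.64, SE 0.40, limma adjusted p = 0.00713), and the groups did not overlap. hlh-28 differed by 0.56 (SE 0.21, limma adjusted p = 0.0646). Neither was called in the triple mutant against daf-2 (0.53 and -0.10, limma adjusted p = 0.359 and 0.772).

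With both replicate 4 libraries left out, 2 of the 9 genes were called lower in the triple mutant than in the libraries labelled double, glp-1, given above, and hlh-25 at -1.40 (SE 0.33, interval -2.11 to -0.68, limma adjusted p = 0.0476). hlh-26 (-0.82, adjusted p = 0.071) and hlh-27 (-1.15, adjusted p = 0.208) were not called. The family members hlh-28 (-0.85, adjusted p = 0.015) and hlh-29 (-1.59, adjusted p = 0.0197) were. In the same fit 12 of the 15 maternal mRNAs and 7 of 14 early zygotic genes were called lower as well, beside 2.00% of all genes. Median changes of the 2 lists were -1.28 and -1.14. For lag-2, lin-12, lag-1 and ref-1 the differences between the triple mutant and the libraries labelled double were between -0.27 and -0.08 in that fit, and for apx-1 the difference was 0.37 (adjusted p = 0.343).

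**Figure D3:**
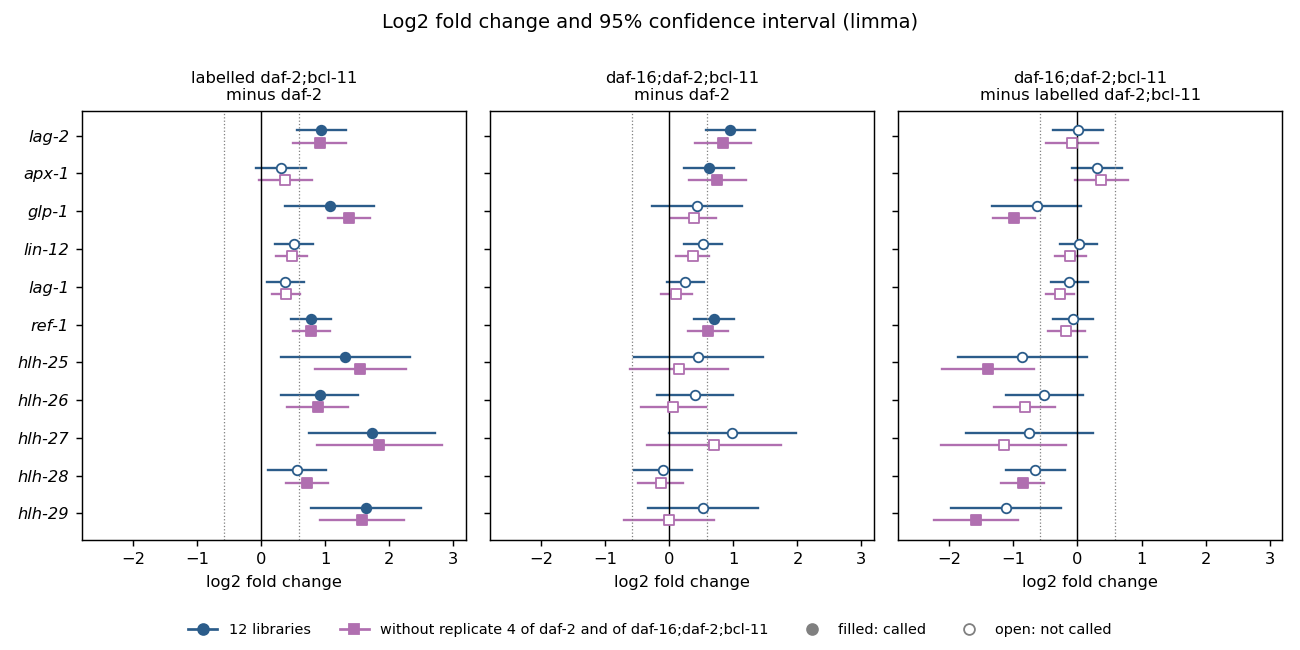
Log2 fold changes (points) with 95% confidence intervals (lines) of the 9 genes and of hlh-28 and hlh-29 in 3 comparisons, from all 12 libraries (circles) and without replicate 4 of daf-2 and of the triple mutant (squares), filled where called. Dotted lines mark the fold threshold of 1.5, and lag-2 and ref-1 are filled in both comparisons with daf-2 under both fits.

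The members were also set beside markers of embryonic stage, as a description over 12 libraries that share genotype and library preparation. glp-1 ran with the mean of the 15 maternal mRNAs (Pearson r = 0.97 over the 12 libraries and 0.96 within genotypes). hlh-25, hlh-26 and hlh-27 ran with the mean of 14 early zygotic genes (r = 0.98, 0.92 and 0.92, and 0.97, 0.87 and 0.91 within genotypes). For lag-2 the correlation with the maternal mean was 0.63 over all libraries and 0.16 within genotypes, and that with the later embryonic markers was -0.76 and -0.02. For apx-1 the correlation with the maternal mean was 0.29 and -0.01, and that with the later embryonic markers was -0.57 and 0.05. With the mean of the 5 yolk genes it was 0.28 and 0.68 for apx-1, and -0.55 and -0.67 for lag-2. With the maternal mean, lag-1 was at 0.87 over all libraries and 0.75 within genotypes, and ref-1 at 0.79 and 0.63. lin-12 ran against the later embryonic markers (r = -0.94, and -0.82 within genotypes). In the libraries labelled double against daf-2, 14 of the 15 maternal mRNAs and 9 of the 14 early zygotic genes were called higher and 6 of the 12 later embryonic markers lower. Over all genes, 7.00% were called higher and 15.0% lower. In the triple mutant the counts were 2 of 15 and 3 of 14 higher (1 of the 14 was lower), and 6 of 12 lower. There, 6.38% of all genes were called higher and 16.2% lower. The maternal count of the triple mutant rests on the replicate 4 libraries. When both were left out, 11 of 15 were called higher, beside 1547 of the 25122 genes. Without triple mutant replicate 4 alone, 0 of 15 were called higher, beside 1722 of the 25122 genes. The part of embryonic stage in the differences of the 9 genes was not tested.

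**Figure D4:**
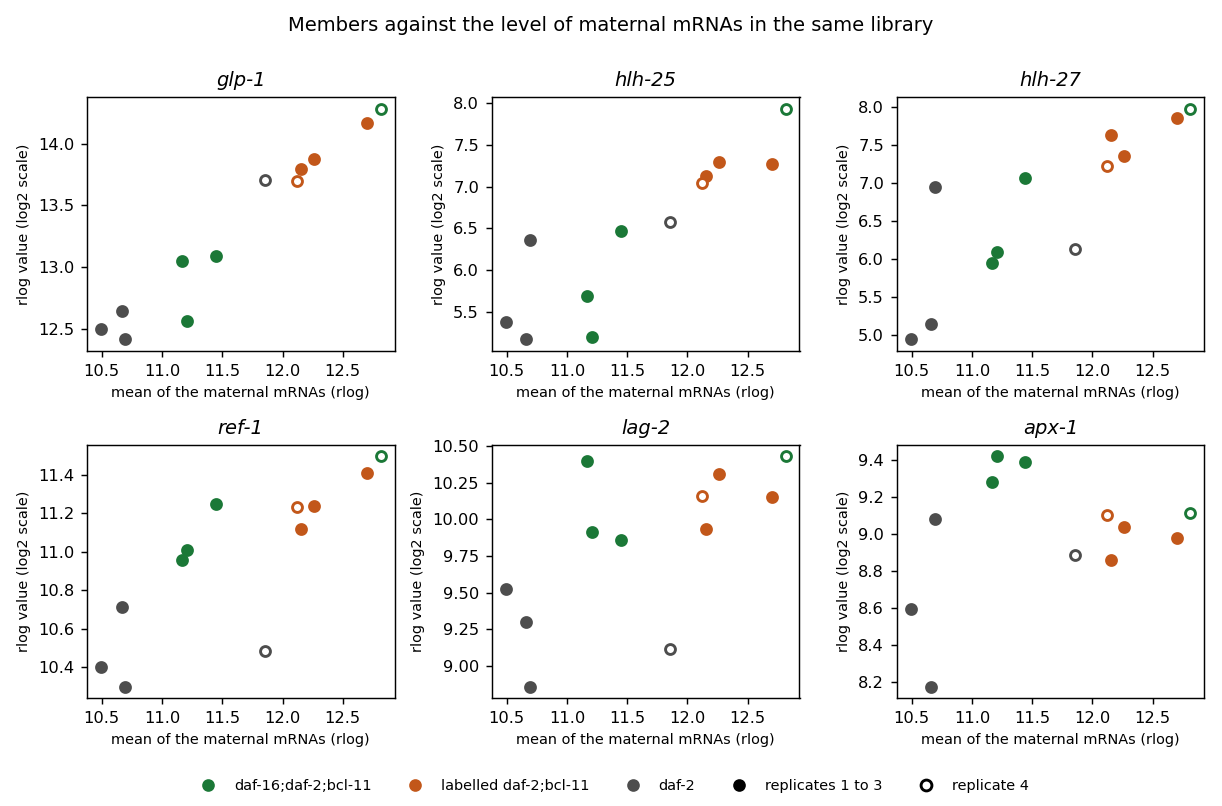
rlog value of 6 of the 9 genes against the mean rlog value of 15 maternal mRNAs in the same library, coloured by genotype, with open points for replicate 4. glp-1 lies along one line over the 12 libraries (r = 0.97), and for lag-2 and ref-1 every daf-2 library lies below every mutant library.

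Over the whole table, the genes whose values ran most closely with glp-1 over the 12 libraries were zif-1 and puf-7 (r = 0.992 and 0.989). For hlh-25 the most alike gene with a symbol was oef-1 (r = 0.987), for lin-12 they were sprp-4 and ufd-2 (r = 0.991 and 0.990), for lag-2 fntb-1 and rpb-2 (r = 0.982 and 0.981), and for ref-1 evl-18 and B0464.6 (r = 0.984 and 0.982). apx-1 had the least close partners of the 9 genes, clec-196 and JC8.17 (r = 0.930 and 0.915).

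The rest of the pathway was read from a list of 38 genes found in the table. In the libraries labelled double against daf-2, 9 were called higher, 6 lower and 23 neither (7.00% and 15.0% of all genes were called higher and lower). In the triple mutant against daf-2, 5 were called higher and 6 lower (6.38% and 16.2% of all genes). The 6 of 38 lower is thus near the share over all genes in both comparisons. The genes called lower were ligands and co-ligands, apart from sel-7. In each comparison 5 of 13 DSL ligands and co-ligands were called lower and 1 higher. dos-2, which encodes a co-ligand with the DOS motif that cooperates with DSL ligands, was at 6.49, 6.43, 6.60 and 7.28 in the triple mutant, 7.79, 7.04, 7.78 and 7.75 in the libraries labelled double, and 8.96, 9.02, 9.26 and 9.94 in daf-2. No mutant library reached the daf-2 range. dos-2 was 6.04-fold lower in the triple mutant (-2.59, SE 0.26, limma adjusted p = 1.12e-05) and 3.26-fold lower in the libraries labelled double (-1.71, SE 0.26, limma adjusted p = 0.000341).

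Of the further co-ligand genes, dos-1 and osm-11 were called lower in both comparisons. osm-7 was called lower in the triple mutant only, and dos-3 in neither comparison, and both are named after their values were seen. dos-1 was 2.08-fold lower in the triple mutant than in daf-2 (-1.05, SE 0.21, limma adjusted p = 0.00157) and 2.00-fold lower in the libraries labelled double (limma adjusted p = 0.00282). osm-11 was 2.30-fold lower in the libraries labelled double (-1.20, SE 0.26, limma adjusted p = 0.00362), and 1.87-fold lower in the triple mutant (-0.90, limma adjusted p = 0.017). Triple mutant replicate 3 of osm-11 (8.66) lay within the daf-2 range (8.44 to 8.81). The osm-11 call in the triple mutant was lost without both replicate 4 libraries. sel-7, which encodes a nuclear factor that promotes LIN-12 activity, was 3.67-fold lower in the triple mutant (-1.88, SE 0.34, limma adjusted p = 0.000718) and 2.37-fold lower in the libraries labelled double (-1.24, SE 0.34, limma adjusted p = 0.0122). Among the DSL ligand genes, dsl-3 was 1.74-fold higher in the triple mutant (0.80, SE 0.14, limma adjusted p = 0.00074), against a difference of 0.44 in the libraries labelled double (limma adjusted p = 0.0345, under the fold threshold). dsl-7 was lower in both comparisons (1.88-fold and 1.92-fold, limma adjusted p = 0.00112 and 0.0012) and is named after its values were seen.

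Targets and fate genes downstream of Notch form a further group of the list. Of 9 such genes, 5 were called higher in the libraries labelled double and 2 in the triple mutant, and none lower. Over all genes, 7.00% and 6.38% were called higher and 15.0% and 16.2% lower. The 5 genes include the near copies tbx-37 and tbx-38. tbx-38, a near copy of tbx-37 and a T-box gene of the anterior blastomeres whose expression GLP-1 signaling restricts, was at 7.71, 7.54, 6.85 and 10.27 in the triple mutant, 9.83, 9.37, 9.29 and 9.38 in the libraries labelled double, and 7.73, 6.10, 7.29 and 8.57 in daf-2. It was 4.12-fold higher in the libraries labelled double than in daf-2 (2.04, SE 0.61, limma adjusted p = 0.02), and again replicate 4 of both other genotypes was high. Its difference in the triple mutant was 0.67 (limma adjusted p = 0.442). sygl-1 and lst-1 are targets of GLP-1 in germline stem cells. sygl-1 was 2.89-fold higher in the libraries labelled double (1.53, SE 0.39, limma adjusted p = 0.00884), and its difference in the triple mutant was 0.92 (limma adjusted p = 0.0891). lst-1 was 1.69-fold higher in the triple mutant (0.76, SE 0.17, limma adjusted p = 0.00398) and 1.86-fold higher in the libraries labelled double (0.89, limma adjusted p = 0.00168). lst-4, a sorting nexin gene, was 1.57-fold higher in the triple mutant (0.65, SE 0.14, limma adjusted p = 0.00205) and 1.55-fold higher in the libraries labelled double (0.63, limma adjusted p = 0.00314).

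Of 7 genes for cutting the receptor, 1 was called higher in the libraries labelled double, the presenilin gene hop-1 (2.18-fold, limma adjusted p = 0.0149), and 2 in the triple mutant, the presenilin gene sel-12 (1.52-fold, limma adjusted p = 0.00524) and the nicastrin gene aph-2 (1.51-fold, limma adjusted p = 0.00273). Over all genes, 7.00% and 6.38% were called higher in the same order. All 7 genes for cutting the receptor had log2 fold changes above 0 in both comparisons, where the medians over all genes were -0.02 and -0.01. Without both replicate 4 libraries, none of the 7 was called in the triple mutant against daf-2 (1547 of the 25122 genes were called higher). In that fit 6 of the 7 were above 0, and the lowest value was -0.001. hop-1, sel-12 and aph-2 were named after their values were seen. None of the 38 was called between the triple mutant and the libraries labelled double, where 7 had an unadjusted p below 0.05 (6.03% of all genes). With both replicate 4 libraries left out, 6 of the 38 were called lower in that comparison (2.00% of all genes). They include the near copies hlh-28 and hlh-29, and tbx-37 and tbx-38.

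**Figure D5:**
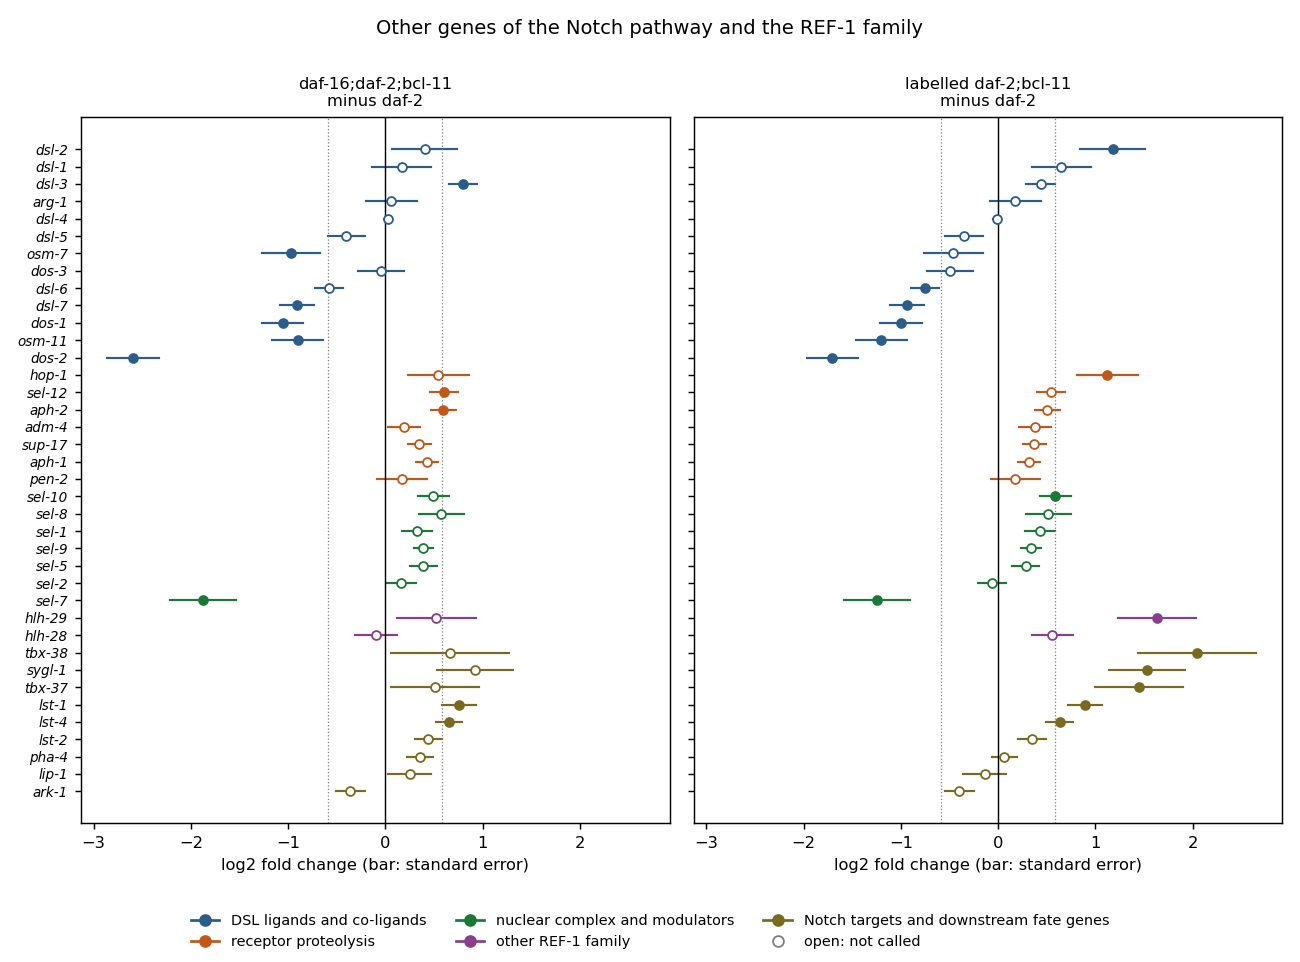
Log2 fold changes (points) with standard errors (lines) of the 38 other pathway genes against daf-2, in the triple mutant and in the libraries labelled double, coloured by role and filled where called. dos-2 and sel-7 lie furthest to the left in both panels, and the genes of receptor cutting all lie to the right of 0.

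The scaling between libraries bears on how many of these genes are counted. Library medians were 5.77 to 5.95 in the triple mutant, 5.92 to 6.01 in the libraries labelled double, and 6.36 to 6.50 in daf-2. Centring each library on its median added 0.43 to every log2 fold change of the libraries labelled double against daf-2, and 0.54 to those of the triple mutant. The median log2 fold change over all genes was thereby moved away from 0, from -0.02 to 0.41 and from -0.01 to 0.52. All 9 genes were then called higher in the libraries labelled double (26.7% of all genes) and 8 of 9 in the triple mutant (37.6% of all genes). hlh-25 was the exception in the triple mutant. Of the 6 pathway genes called lower in each comparison, osm-11, dos-2 and sel-7 were still called after centring in the libraries labelled double, and dos-2 and sel-7 in the triple mutant. The ligand and co-ligand counts were then 2 lower and 4 higher of 13 in the libraries labelled double, and 1 lower and 4 higher in the triple mutant. Without overlap, which scaling can also change, 7 of the 9 genes were higher in the libraries labelled double than in daf-2 (16.7% of all genes) and 4 of the 9, lag-2, apx-1, lin-12 and ref-1, in the triple mutant (13.5% of all genes).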

How the data were processed

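RNA of eggs of 3 genotypes was sequenced in 12 libraries. The authors made Smart-seq2 libraries from 5 ng of RNA, used bcl2fastq 2.20 and Kallisto 048.0 (versions and the build WBcel235 from the submitters' processing notes), and deposited rlog values, which are on a log2 scale. The filter on low counts was not given in the sources used here. No further normalization was applied. Columns were matched to libraries by genotype and replicate number in their names. Of 25122 identifiers, 23471 had a symbol, and coordinates came from the Ensembl 115 annotation.

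Differences came from limma 3.58.1 under R 4.3.3, fitted to all 12 libraries without a block and with eBayes given a trend, and Benjamini-Hochberg adjustment over all genes. The pipeline was tested on simulated data. The members, lists and tests were chosen with earlier results of these data known. Genes named from the other pathway genes were, in each comparison, up to 3 called genes with the largest increase and up to 3 with the largest decrease, and 2 most alike genes per member. Of 39 listed pathway genes, 38 were found.

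Titles give only a replicate number, which was used as a possible pairing of the libraries. That libraries of the same number belong together was not established. Deviations from group means of same-numbered libraries correlated at 0.03 on average between the libraries labelled double and daf-2, 0.23 between the triple mutant and daf-2, and -0.05 between the triple mutant and the libraries labelled double. Alternatives were eBayes without a trend, only the compared genotypes, a minimum mean of log2(10), centring, quantile normalization, a replicate block, other fold thresholds, each library left out, and both libraries that stood apart left out. No pair of libraries held identical values. Promoter and protein sequences were not used here.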

Additional observations from a re-analysis of the deposited data

Results flagged for a closer look

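Of 90 groups of 4 libraries checked for a library far from the others, 8 held one, where chance alone flags about 1 in 20. In the triple mutant, replicate 4 was far above the other 3 libraries for the mean of the maternal mRNAs (12.81 against a mean of 11.27), for sygl-1 (10.32 against 9.07) and for hlh-28 (4.06 against 3.28). In daf-2, replicate 4 was far above the others for the mean of the maternal mRNAs (11.86 against 10.62) and for glp-1 minus lin-12 (0.35 against -0.96). In the libraries labelled double, lag-1 was high in replicate 1 (13.96 against 13.73) and dos-2 was low in replicate 2 (7.04 against 7.77). lst-1 was low in replicate 1 of daf-2 (11.21 against 11.91).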

How the results depend on the processing

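The count of called members depended on the setting. In the libraries labelled double against daf-2, 6 members were called, 3 at a 2-fold threshold, and 3 to 6 when 1 library was left out, with 3 without daf-2 replicate 2 or 3 or without replicate 1 or 2 of the libraries labelled double. In the triple mutant against daf-2, 3 were called, 8 after centring, 0 at a 2-fold threshold, and 2 to 4 when 1 library was left out. An unadjusted limma p below 0.05 was found there for 4 members, beside 10182 of the 25122 genes. At the 2-fold threshold, 514 of all genes were called higher and 1997 lower in the libraries labelled double against daf-2. In the triple mutant against daf-2, the counts at that threshold were 90 higher and 2539 lower. Between the triple mutant and the libraries labelled double, 0 were called, and 2 without both replicate 4 libraries (lower, beside 2.00% of all genes). The replicate block called hlh-27 in the triple mutant against daf-2 (0.98, limma adjusted p = 0.0488) and changed no other call of a member. No called change turned its direction in any alternative run. Centring changed the counts over all genes most, to 6714 higher and 1860 lower in the libraries labelled double against daf-2 (1758 and 3759 without it), and to 9434 higher and 2031 lower in the triple mutant against daf-2 (1603 and 4058 without it). Of the 38 other pathway genes, 15 and 11 were called in these comparisons, and 27 and 27 after centring. The counts were 9 and 3 at a 2-fold threshold, 13 and 7 after quantile normalization, and 22 and 18 with no fold threshold. Of all 25122 genes, 4818 and 4918 were called after quantile normalization, and 7375 and 7973 with no fold threshold. Without replicate 1 of the libraries labelled double, the first comparison called 9 of the 38 and 4493 of all genes. Between the triple mutant and the libraries labelled double, 0 of the 38 were called, 5 without triple mutant replicate 4 and 6 without both replicate 4 libraries. Over all genes, 1.27% and 2.00% were called lower in these settings. Depth is unknown, so precision rests on 4 libraries a genotype.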
